A study of Caenorhabditis elegans with 2 samples.

Results

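Small nuclear RNA (snRNA) genes of Caenorhabditis elegans were examined for binding of ATHP-1, a protein named for its AT-hook and PHD finger motifs. The members are all genes that the Ensembl annotation of WBcel235 (the ce11 build) gives the biotype snRNA, which is 129 of 46890 annotated genes on chromosomes I to V and X. Each gene was taken as a pair of regions, the gene body and the 200 bp before its 5′ end, so that 258 regions were searched. A gene was counted where the summit of a deposited ChIP-seq region, its point of highest signal, lay in either. The members were chosen by biotype and not by any measured value.

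The data come from 1 group with 2 biological replicates. The worms were whole young adults of strain OP685, a mixed population of both sexes, 64 hours after growth began from starved first larval stage animals. They carry the unc-119(tm4063) mutation on chromosome III and wgIs685, a transgene that expresses ATHP-1 with GFP and FLAG at its carboxy terminus. Chromatin was sheared by sonication and precipitated with an antibody to GFP, so the lists report a tagged transgene product and not the native protein. What drives the transgene is not stated in the labels, and the signal of a whole animal does not show which cells it came from. The files are peak lists, and how deeply each library was sequenced is not given in the sources used here. With a single group and 2 replicates no test was possible, and every result is a count or a value given beside the same measure elsewhere.

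Spliceosomal snRNAs form the RNA core of the machine that removes introns. U1 pairs with the start of the intron and U2 with its branch site, while U4, U5 and U6 join as a preformed complex. Nematodes also make spliced leader (SL) RNAs, which donate their own leader exon to the front of other messages. In C. elegans, SL1 goes mostly to the first or only gene of a transcription unit and SL2 to later genes of operons. SmY RNAs are nematode RNAs that bind the same Sm proteins. Most snRNA genes are transcribed by RNA polymerase II, and U6 by RNA polymerase III. Both kinds carry a proximal sequence element a short way upstream, which the SNAPc complex binds, and U6 genes add a TATA box.

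The annotation names SL1, SL2 and SmY genes by symbol, but most other members bear only a sequence name. These were assigned to families by characteristic letters of the RNA or by similarity to a named gene, and are called U1-like and so on. There were 14 U1-like, 20 U2-like, 5 U4-like, 12 U5-like and 23 U6-like genes, with 12 SL1, 19 SL2 and 10 SmY genes. Of the SL2 genes, 18 were named by symbol and 1, ZK1251.14, was placed by similarity. A further 14 genes stayed unassigned and are called other.

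The 90 bases before the 5′ end are shown for 10 genes because a short pattern recurs there at a near constant distance, and the summits are described relative to it below. The first 7 have the strongest reproducible region of their family among the genes whose sequence can be shown. The next pair are further SL2 genes with such a region, and sls-2.18 is the SL2 gene with the highest pooled score in the searched regions without one. Capitals mark CCC and TGTC separated by 6 bases of any kind, TGTC alone, starting from 60 to 40 bp upstream, where the full pattern is missing, and TATATA within 40 bp of the gene. F38E11.10 has none of these. Sequences run 5′ to 3′ along the strand of the gene, from the RefSeq genome of WBcel235.
sup-6 (U1-like, chrII:12944968-12945057, minus strand): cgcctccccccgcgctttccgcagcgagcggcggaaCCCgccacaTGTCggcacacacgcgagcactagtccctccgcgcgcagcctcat
Y57G11C.35 (U2-like, chrIV:14765035-14765124, minus strand): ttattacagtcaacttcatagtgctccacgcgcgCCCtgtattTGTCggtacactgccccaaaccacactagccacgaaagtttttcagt
C52E4.8 (U4-like, chrV:11980028-11980117, plus strand): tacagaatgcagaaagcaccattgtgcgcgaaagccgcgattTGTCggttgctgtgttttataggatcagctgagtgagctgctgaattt
F38E11.10 (U5-like, chrIV:9444552-9444641, plus strand): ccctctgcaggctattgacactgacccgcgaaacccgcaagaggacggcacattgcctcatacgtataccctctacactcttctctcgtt
W05B2.8 (U6-like, chrIII:10989589-10989678, plus strand): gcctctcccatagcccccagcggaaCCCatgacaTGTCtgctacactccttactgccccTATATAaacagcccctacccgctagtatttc
sls-2.1 (SL2, chrII:5844775-5844864, plus strand): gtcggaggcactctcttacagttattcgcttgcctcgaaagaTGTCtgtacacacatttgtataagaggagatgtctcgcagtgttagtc
M163.13 (other, chrX:14476777-14476866, plus strand): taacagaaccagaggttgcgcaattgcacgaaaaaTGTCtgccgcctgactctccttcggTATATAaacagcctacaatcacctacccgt
sls-2.8 (SL2, chrIII:12250375-12250464, plus strand): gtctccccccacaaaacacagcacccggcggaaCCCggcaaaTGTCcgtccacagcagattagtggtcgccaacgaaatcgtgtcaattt
sls-2.16 (SL2, chrIII:7141301-7141390, plus strand): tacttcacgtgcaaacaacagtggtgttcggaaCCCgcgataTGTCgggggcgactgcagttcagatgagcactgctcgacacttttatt
sls-2.18 (SL2, chrIII:7142201-7142290, plus strand): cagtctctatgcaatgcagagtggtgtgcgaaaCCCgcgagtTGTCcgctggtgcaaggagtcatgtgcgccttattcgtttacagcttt

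Reproducible ATHP-1-GFP summits fell at 19 of the 129 snRNA genes (14.7%), 9 of them in the gene body and 10 in the upstream 200 bp. Among all annotated genes the corresponding shares were 3.34% for either region, 2.13% for the body and 1.3% for the upstream region. The 19 genes held 18 distinct summits, because mir-1831, a 22 bp entry that Ensembl also types as snRNA, lies inside sup-39 and shares its summit. In each replicate alone, cut to as many of its strongest regions as the reproducible list holds (1649), 15 snRNA genes had a summit in replicate 1 and 21 in replicate 2. All genes had 3.28% and 3.29% in those same lists, so the snRNA share stood above the background in both replicates. The complete pooled list of 30000 regions, which reaches far into weak signal, had a summit at 56 snRNA genes (43.4%) and at 27.2% of all genes. At the 19 genes the reproducible score and rank were those of the pooled list. A reproducible summit is therefore not the same as a summit at the gene in each replicate. Both complete replicate lists had a counted summit at 15 of the 19. In the complete lists of the replicates, 46 genes (35.7%) had one in replicate 1 and 57 (44.2%) in replicate 2, beside 28.7% and 28.9% of all genes. In these complete lists the excess lay upstream and not in the body. Pooled summits were in the body at 23.3% of snRNA and 23.3% of all genes, and upstream at 23.3% and 7.28%. The body shares were 20.9% and 24.6% in replicate 1, and 21.7% and 24.4% in replicate 2. The upstream shares were 17.1% and 6.98% in replicate 1, and 27.1% and 7.71% in replicate 2.

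Other small RNA classes gave a frame for this share. Transfer RNA genes had a reproducible summit in either region at 34.8% of 612 genes, small nucleolar RNA genes at 18.8% of 346, microRNA genes at 2.68% of 261 and protein-coding genes at 4.78% of 19973. In this list the snRNA share of 14.7% lay between the protein-coding and the small nucleolar RNA shares. Gene length was not matched between classes. The longest snRNA gene had 187 bp, while the upper quartile of protein-coding summit positions was 2111 bp from the 5′ end. In the upstream 200 bp, of equal length in every class, protein-coding genes had 1.88%. In the complete pooled list the snRNA share of 43.4% lay below the protein-coding 49.0% and above the small nucleolar RNA 41.9%. By region, the snRNA genes were split almost evenly, with 6.98% in the body and 7.75% upstream. The tRNA genes had more in the body (22.4% against 12.4% upstream) and the small nucleolar RNA genes more upstream (14.7% against 4.62% in the body). None of these differences between classes was tested.

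**Figure D1:**
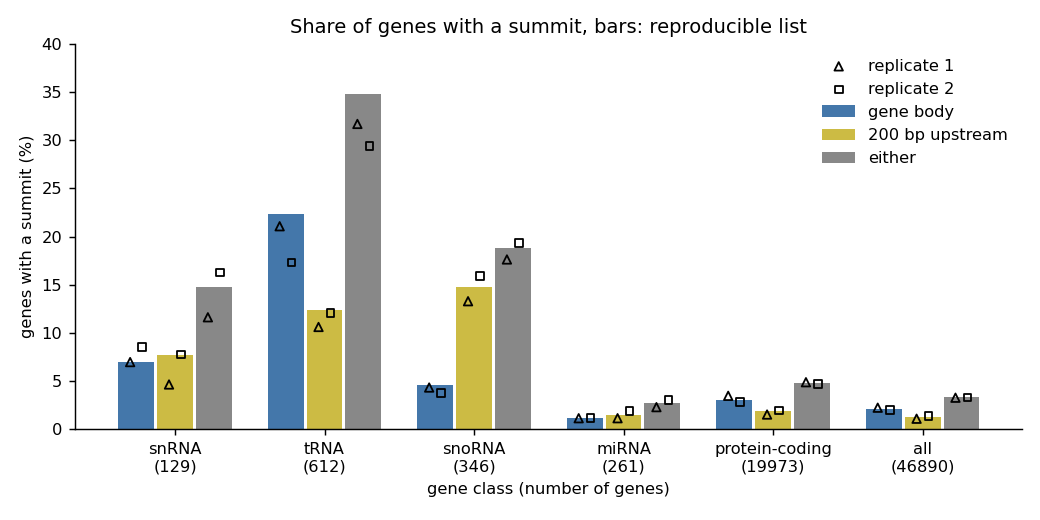
Share of genes (y axis, percent) with a summit in the gene body, in the 200 bp upstream or in either, for snRNA genes and 4 other gene classes and for all genes (x axis, with the number of genes). Bars are the reproducible list, triangles the 1649 strongest regions of replicate 1 and squares those of replicate 2; for snRNA genes in either region the bar is at 14.7%, with replicate 1 at 11.6% and replicate 2 at 16.3%.

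The families differed in how many of their genes carried a reproducible summit. SL2 genes had 5 of 19. U1-like genes also had 5, of 14, but mir-1831 was counted among them by sequence similarity, so that they held 4 distinct summits. U5-like genes had 3 of 12, U2-like genes 2 of 20, U6-like genes 2 of 23, U4-like genes 1 of 5 and the other genes 1 of 14. SL1 and SmY genes had 0, of 12 and 10 genes. With so few genes per family these are counts only, and no difference between families was tested.

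**Figure D2:**
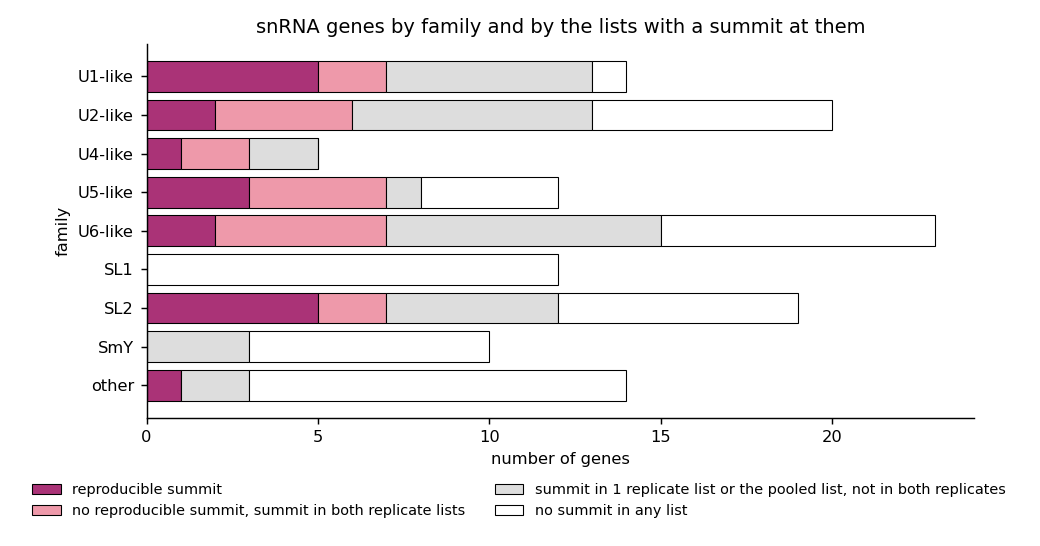
Number of snRNA genes (x axis) in each family (y axis), divided by the lists with a summit in the gene body or the 200 bp upstream. SL2 and U1-like genes have the most with a reproducible summit, 5 each (4 distinct summits for U1-like, where mir-1831 and sup-39 share one), and all 12 SL1 genes lack a summit in every list.

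The strength of a region is the authors' signal score, which has no fixed range so that strength is compared between lists only by rank. The 18 distinct summits had scores between 109.2 and 310.9. Their median was 138.5, and 8 of them exceeded 142.9, the median of the reproducible list. Ranks ran from 86 to 1519 of 1649, with a median of 893. The snRNA regions were thus spread through the list, with neither its strongest nor its weakest entries among them. Of the 14 distinct summits with a counted summit of both replicates at the same gene, the rank was better in replicate 2 at 9 and in replicate 1 at 5. The strongest replicate 1 region overlapping the reproducible one was the one counted for the gene at 10 of the 18, and that of replicate 2 at 17. At the other genes that region peaked outside the searched interval.

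Among the SL2 genes, which encode the leader RNA used inside operons, sls-2.1 (chrII:5844865-5844974, plus strand) had the strongest region of any snRNA gene. Its score was 310.9 in the reproducible list (rank 86), with 125.3 in replicate 1 (rank 148) and 182.3 in replicate 2 (rank 78). The region spanned chrII:5844692-5845001 and so covered the gene and the TGTC shown above. Both replicates placed it high in its list, but replicate 1 put the summit 62 bp inside the gene, replicate 2 placed it 49 bp upstream and the reproducible list 30 bp upstream. The second SL2 gene, sls-2.8 on chromosome III, had a score of 260.9 (rank 156). Its replicate 2 region scored 186.4 with a summit 42 bp upstream, whereas the overlapping replicate 1 region scored 112.6 with its summit 131 bp past the 5′ end, just outside the gene. That difference of placement, and not a missing region, is why replicate 1 does not count for sls-2.8.

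The other SL2 genes with a summit had weaker reproducible regions. On chromosome III, sls-2.16 scored 139.6 and sls-2.5 121.6, and on chromosome I sls-2.9 scored 136.1. The sls-2.5 region ranked 1088 in replicate 1 and 1568 in replicate 2, and the sls-2.9 region 852 and 820 in replicates 1 and 2. At sls-2.16 the replicate 2 summit lay 107 bp past the 5′ end and scored 61.1, and the overlapping replicate 1 region scored 80.05 with its summit at 114 bp, beyond the end of the gene. The genes sls-2.5 and sls-2.16 sit beside sls-2.18 inside glr-2, a gene for a glutamate receptor subunit. The sls-2.18 region scored 105.2 in the pooled list (rank 1671), just under the lowest score of the reproducible list, 105.6. Its replicate 2 region scored 66.7 (rank 1267), and replicate 1 had no summit there.

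The counting rule leaves out summits past the 3′ end, and 4 of the 5 genes this affects are SL2 genes. The largest case was sls-2.4 (chrI:4172206-4172315, plus strand), where a reproducible region at chrI:4172013-4172580 with a score of 309.2 (rank 88) covered the whole gene but peaked 42 bp past its 3′ end. In the separate replicates its summits were upstream, 71 bp in replicate 1 (score 148.9, rank 84) and 20 bp in replicate 2 (score 166.2, rank 106). It was the only gene without a counted reproducible summit that ranked within the top 1649 of both replicates. At sls-2.2 a region with a score of 296.3 overlapped the gene and peaked 112 bp past its end, and at sls-2.14 one of 126.0 peaked 53 bp past. A region of 187.4 peaked 105 bp past sls-2.15 without overlapping it. The remaining case was C28A5.7, a U6-like gene, with a region of 106.3 peaking 63 bp past its end. Counting a summit within 200 bp on either side, a setting chosen after seeing the data, gave 24 genes (18.6%) in place of 19, while the share of all genes went up as well, to 4.47%.

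After sls-2.18, the SL2 gene without a counted summit that had the highest pooled score was sls-2.7, at 76.8, with 31.1 in replicate 1 and 41.5 in replicate 2. That is below every score in the reproducible list. No list had a summit at 7 of the 19 SL2 genes, sls-2.2 and sls-2.15 among them.

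All 12 SL1 genes lacked a summit in every list, weak regions included. They lie together on chromosome V between positions 17118154 and 17132107, and the whole sequence of each occurs at 10 or 12 places in the genome. Neither their bodies nor, for 11 of the 12, their upstream regions held any 36-base word found once in the genome. The treatment of reads that match several places is not stated in the labels or the readme text. The lists therefore cannot tell an unbound SL1 gene from one whose reads were not placed.

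The U1-like family included sup-6 and sup-39, U1 snRNA genes whose mutant forms are known from genetics as suppressors of splice-site mutations. At sup-6 (chrII:12944803-12944967, minus strand) the reproducible score was 249.2 (rank 176), with 83.2 in replicate 1 (rank 526) and 178.0 in replicate 2 (rank 85). Its summit was 20 bp upstream in the reproducible list, 7 bp upstream in replicate 1 and 13 bp inside the gene in replicate 2, so all 3 placements were close to the 5′ end while the rank in replicate 2 was the better. At sup-39 (chrII:6968394-6968558, minus strand) the score was 223.9 (rank 234), with 91.8 in replicate 1 (rank 394) and 131.8 in replicate 2 (rank 208). The 3 summits at sup-39 lay 5, 13 and 4 bp inside the gene, for the reproducible list, replicate 1 and replicate 2. A second replicate 1 region that overlapped the reproducible one scored slightly more, 93.4 (rank 365), and peaked 224 bp past the 5′ end, beyond the gene. Replicate 1 thus had a summit on either side of the 3′ end of sup-39.

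Further U1-like genes with reproducible summits were weaker. H27M09.6 on chromosome I scored 187.3, with rank 388 in replicate 1 and 529 in replicate 2, and its summit lay 25 bp inside the gene. F08H9.11 on chromosome V scored 113.6, with 23.8 in replicate 1 (rank 14108) and 66.6 in replicate 2 (rank 1271). A stronger replicate 1 region overlapping the same peak scored 47.9 (rank 2249) and peaked 220 bp past the 5′ end, beyond the gene. The reproducible summit lay 118 bp inside F08H9.11, where 2.59% of the 50-base words of the body were unique. The gene that this signal belongs to is therefore uncertain. Below the reproducible list, F40G12.13 had the highest pooled score of the family at 81.8, and F08H9.10 had 67.8. T27E4.10 was the only U1-like gene with no summit in any list. Its body held no 50-base word that is unique in the genome.

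The U6-like genes had a pair of strong regions and many weak ones. W05B2.8 (chrIII:10989679-10989780, plus strand) scored 292.7 (rank 107), with 166.9 in replicate 1 (rank 55) and 129.2 in replicate 2 (rank 223). F54D8.7 (chrIII:5080798-5080898, minus strand) scored 224.7 (rank 231), with 95.9 in replicate 1 (rank 339) and 130.2 in replicate 2 (rank 219). Both ranked within the top 339 of each replicate, with summits within 10 bp inside the gene at W05B2.8 and from 26 to 43 bp upstream at F54D8.7. Next in the family, R07E5.16 had a pooled score of 94.6, with 60.4 in replicate 1 (rank 1252) and 37.3 in replicate 2 (rank 5110), and K09C6.12 had 72.1. No list had a summit at 8 of the 23 genes.

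The bodies of both bound U6-like genes match 17 places in the genome exactly, so reads from the body itself cannot be assigned to one gene. Their upstream regions were unique throughout, with 100% of 50-base words found once. At W05B2.8, where the summits lie inside the repeated body, the gene that the signal belongs to is therefore uncertain to that extent. The summit at F54D8.7 lay in unique sequence.

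U5-like genes had 3 reproducible summits, all upstream. F38E11.10 (chrIV:9444642-9444763, plus strand) scored 137.5 (rank 909), with 48.9 in replicate 1 (rank 2150) and 92.7 in replicate 2 (rank 555). F32B5.9 on chromosome I scored 117.7 and ZK897.4 on chromosome IV 109.2, the lowest of all. The replicate 2 rank was the better at F38E11.10 and at F32B5.9, where it was 1101 against 1832 in replicate 1. At ZK897.4 the replicate 2 summit scored 60.6, and the replicate 1 region overlapping it scored 48.6 and peaked 232 bp past the 5′ end. ZK897.4 lies in unc-31, a gene needed for release of dense-core vesicles, next to the U5-like ZK897.3. ZK897.3 had the highest pooled score of the family without a reproducible summit, 98.2, followed by Y69A2AR.36 with 62.4.

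U2-like genes were the largest family after U6-like and had 2 weak reproducible summits. Y57G11C.35 scored 117.1, with 48.9 in replicate 1 and 74.1 in replicate 2. F08G2.10 scored 114.2, with 59.8 in replicate 1 and 56.6 in replicate 2. The counted replicate 1 summits were upstream, by 66 bp and 15 bp, while replicate 2 put its summits 93 bp and 86 bp inside the genes. In both cases a stronger replicate 1 region overlapped the same peak and had its summit past the gene, at 238 bp for Y57G11C.35 (score 57.9) and at 200 bp for F08G2.10 (score 64.9). The sequence of F08G2.10 occurs 9 times in the genome, and its body held no unique 50-base word, so its counts are uncertain in the same way as those of W05B2.8. Among the rest, F11A5.14 had a pooled score of 98.5, with 68.3 in replicate 1 and 37.9 in replicate 2, and Y54G9A.8 had 70.2.

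One U4-like gene, C52E4.8 (chrV:11980118-11980261, plus strand), had a reproducible summit, 19 bp upstream with a score of 165.4 (rank 555). It ranked 523 in replicate 1 and 630 in replicate 2, but replicate 1 put its summit 131 bp inside the gene and replicate 2 at 18 bp upstream. All 5 U4-like genes had a summit in at least 1 list. K03B8.10 had the highest pooled score of the others, 86.0, with 63.4 in replicate 1 (rank 1112) and 21.8 in replicate 2 (rank 17480), and T11F9.16 had 33.9.

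SmY genes had no reproducible summit, and their signal was weak where it was seen. The highest pooled scores were 34.6 at smy-9 and 30.9 at smy-8, and replicate 1 had no summit at any of the 10. Their bodies and upstream regions had a median of 100% unique 50-base words, beside 0% for both regions of the SL1 genes. Whether this bears on the summits of either family was not tested. Of the other genes, M163.13 on chromosome X scored 120.5 with its summit at 79 bp, the last base of the gene. Neither replicate summit counted for it, since the overlapping regions peaked at 150 bp in replicate 1 (score 47.7) and at 80 bp in replicate 2 (score 73.2), both past its end. T10H4.16 and T10H4.17 had pooled scores of 50.6 and 26.4.

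**Figure D3:**
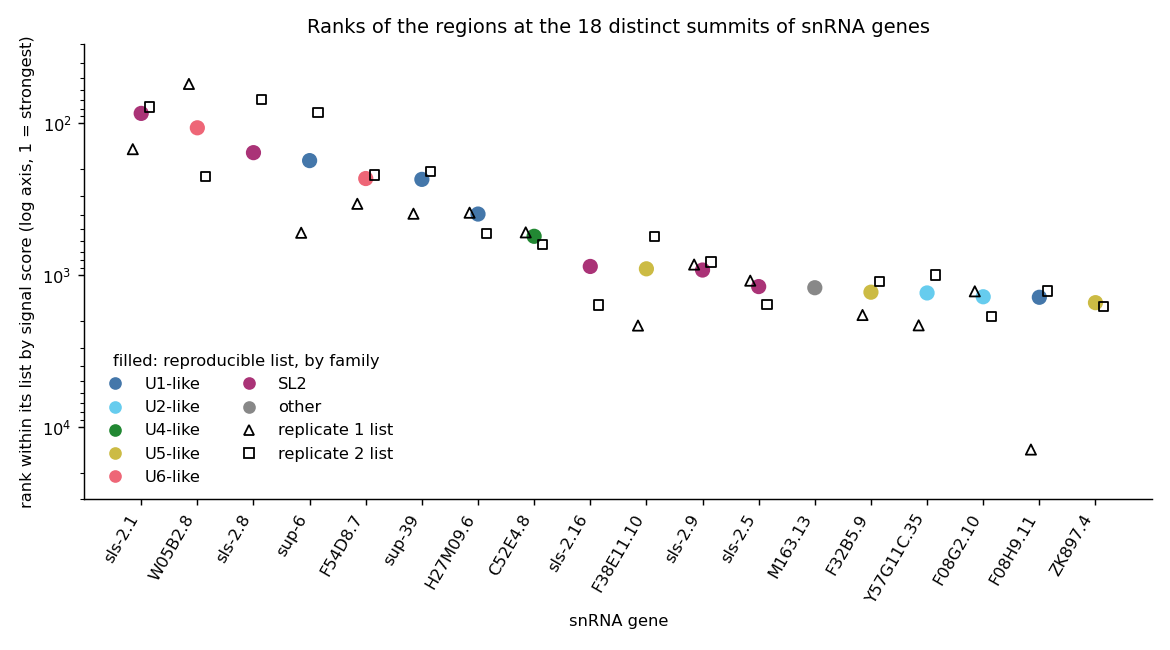
Rank by signal score within its own list (y axis, log scale, strongest at the top) of the region at each of the 18 distinct summits, with genes (x axis) in order of the reproducible rank and coloured by family; open triangles are replicate 1 and open squares replicate 2, shown where that list has a summit in the gene body or the 200 bp upstream. Reproducible ranks run from 86 at sls-2.1 to 1519 at ZK897.4, and at 9 of the 14 genes with both replicates the square is above the triangle.

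Only summits from 200 bp upstream to the 3′ end could be counted, which limits how far from the 5′ end they can lie. The 5 genes with a summit only past the 3′ end, at positions from 151 to 221, were not included. Across the 19 genes the reproducible summit had a median position of -2, counting the 5′ base as 0 and upstream as negative. That value is the position at mir-1831, and sup-39, which shares its summit, stands at 5. The quartiles were -24 and 52, and 13 of the 19 were within 50 bp of the 5′ base. The range ran from -106 at sls-2.9 to 118 at F08H9.11. In the same regions the median position was 15 for tRNA genes and -32 for small nucleolar RNA genes. The replicates did not fix the position closely. Over the 15 genes with a summit in both, the 2 replicate summits were a median of 58 bp apart and at most 159 bp. That distance leaves out the stronger replicate 1 regions that peaked beyond the searched interval.

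**Figure D4:**
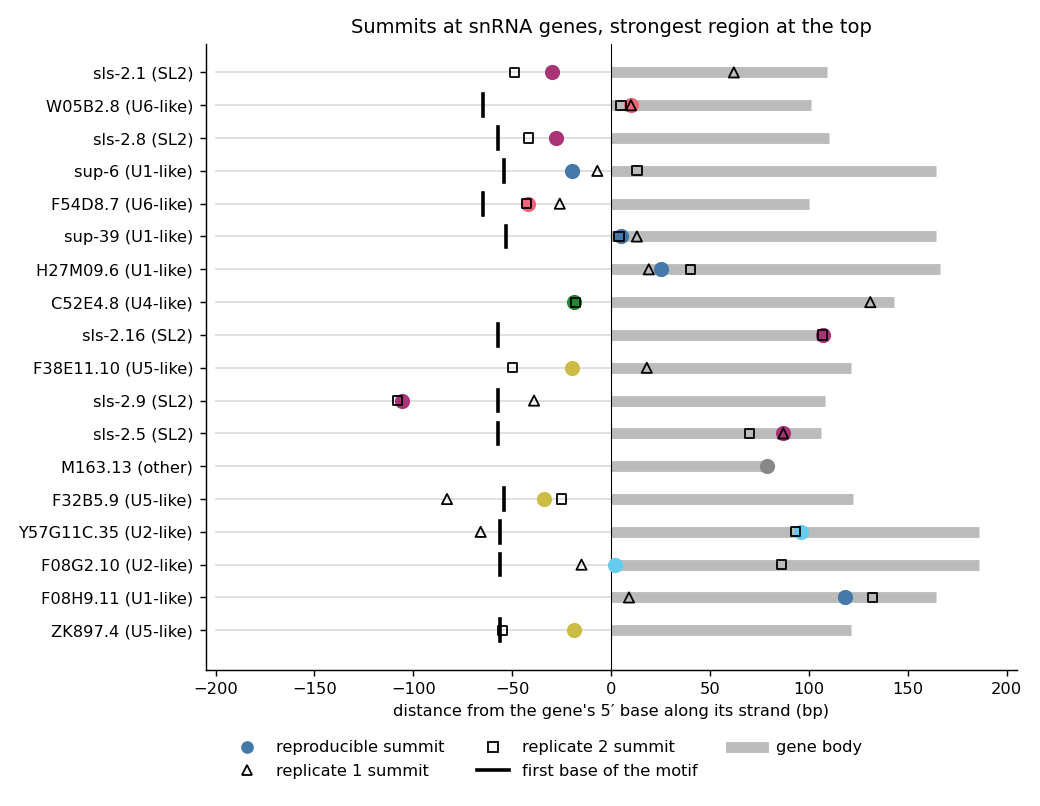
Position of summits (x axis, bp from the 5′ base along the strand of the gene) at each of the 18 genes with a distinct summit (y axis, strongest at the top). Filled circles are the reproducible list, open triangles replicate 1, open squares replicate 2, grey bars the gene body and black ticks the first base of CCC, 6 bases and TGTC. Circles run from -106 at sls-2.9 to 118 at F08H9.11, and ticks stand between -53 and -65. The entry mir-1831, which shares the summit of sup-39, is not shown.

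The upstream pattern was looked for after it had been seen in the sequences of the members, so its presence in them is a description. CCC, 6 bases of any kind and TGTC, read on the strand of the gene, occurred in the 200 bp upstream of 55 of the 129 snRNA genes (42.6%) and of 0.934% of all genes. Counting either strand gave 42.6% and 1.41%. By family it was found upstream of 18 of 20 U2-like, 12 of 19 SL2, 10 of 14 U1-like, 7 of 12 U5-like, 5 of 23 U6-like and 2 of 5 U4-like genes. Its first base stood at -56 in all 18 U2-like genes, at -56 or -57 in the SL2 genes and at -65 in the 5 U6-like genes. SmY genes had 1 match, at -25, and SL1 and other genes had 0.

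The shorter TGTC, allowed to start only from 60 to 40 bp upstream and read on the strand of the gene, was far commoner. It was present at 90 snRNA genes (69.8%), among them 10 of the 12 SL1 and 19 of the 23 U6-like genes, and at 6.27% of all genes, and it is part of the longer pattern where both occur. TATATA within 40 bp upstream was found on the gene strand at 16 of 23 U6-like genes, at -30 or -31, and at 2.45% of all genes. Outside that family 3 snRNA genes held it, M163.13 among them.

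Genes with and without a reproducible summit both carried these letters. The longer pattern was upstream of 13 of the 19 genes with a summit (68.4%) and of 42 of the 110 without (38.2%). These shares mix families, and no SL1 gene and none of the genes called other carried the pattern. U1-like genes had a summit at 3 of 10 with the pattern and 2 of 4 without. The same counts were 2 of 18 and 0 of 2 for U2-like, and 0 of 2 and 1 of 3 for U4-like genes. They were 2 of 7 and 1 of 5 for U5-like, and 4 of 12 and 1 of 7 for SL2 genes. Whether the pattern goes with a summit within a family was not tested. TGTC in the narrow window was present at 18 of the 19 (94.7%) and at 72 of the 110 (65.5%). F38E11.10 was the exception among genes with a summit. The overlapping entries sup-39 and mir-1831 share the same letters as well as the summit, so both counts include that site for each. Both bound U6-like genes had the longer pattern, as did 3 of the 21 without a summit. From the first base of the pattern to the summit the median distance was 58 bp, with a range from 49 bp before that base to 164 bp after it. Among the genes that carry the letters and lack a summit were 10 SL1 genes with TGTC and 16 of the 18 U2-like genes with the longer pattern.

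Exact copies and unique words were counted for every gene. Of the 129 genes, 46 have their whole sequence in at least 1 other place, and 5 of these had a reproducible summit, compared with 14 of the 83 single genes. The body held no unique 50-base word at 5 of the 19 genes with a summit, namely F08G2.10, C52E4.8, F38E11.10, F54D8.7 and W05B2.8. At F08H9.11 the share was 2.59%. The upstream region was better resolved: every 50-base word was unique at 17 of the 19, and the lowest share was 84.8%, at sls-2.9. Among the 110 genes without a summit, 16 had an upstream region with no unique word of that length. Whether reads of such regions were kept was not tested.

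**Figure D5:**
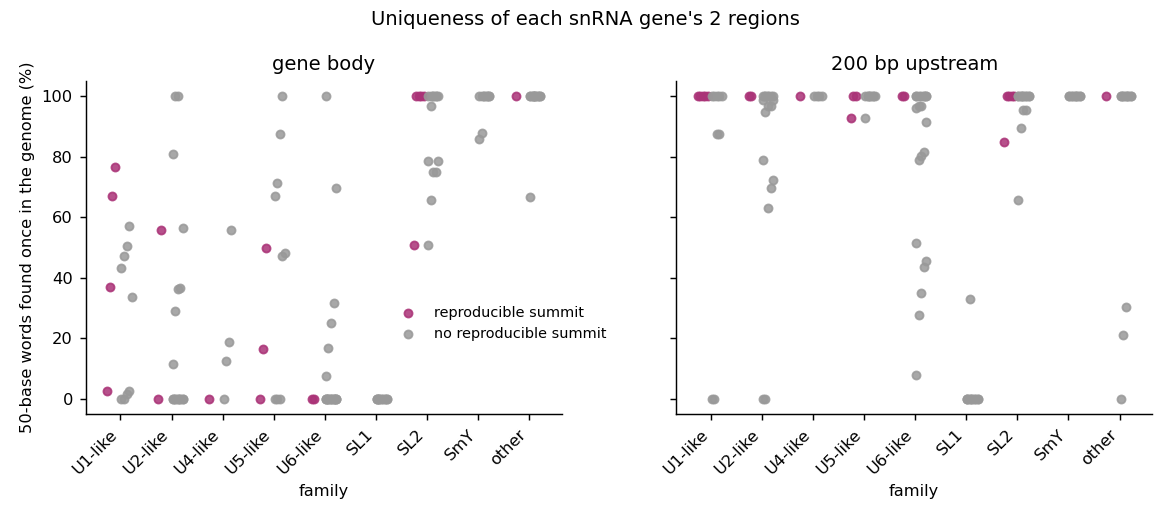
Share of 50-base words found once in the genome (y axis, percent) in the gene body (left) and the 200 bp upstream (right) of each snRNA gene, by family (x axis), with genes that have a reproducible summit in purple and the others in grey; the 22 bp mir-1831 has no word of that length in its body. The upstream regions of genes with a summit are at 84.8% or above. SL1 genes lie at 0 in both panels except sls-1.12, which is at 33.1% upstream and has no summit.

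Many snRNA genes lie within or beside protein-coding genes. Of the 129, 63 lie inside one, as do 9 of the 19 with a summit. The hosts of those 9 were glr-2, C15F1.5, F58G1.7, Y57G11C.5, cpz-1 (a cathepsin Z-like protease), unc-31 and dhc-4 (a dynein heavy chain). A protein-coding 5′ end was within 500 bp of the summit at 6 of the 19, and the nearest was 223 bp away. These were Y75B8A.23 and tim-1 (related to Timeless) at sls-2.8, syp-4 (a synaptonemal complex protein) and H27M09.5 at H27M09.6, Y57G11C.5 at Y57G11C.35, unc-31 at ZK897.4, snr-4 at C52E4.8 and srz-97 at F08H9.11. For the remaining 13 no protein-coding promoter was that near. A tRNA gene lay within 200 bp of the summit at 1 of the 19, sls-2.9, where M01E5.t1 was 26 bp from the summit that is the farthest upstream of all. No small nucleolar RNA gene was that near to any, and genes typed only as ncRNA were at 12. These distances were measured from the summit, and no corresponding count was made for the snRNA genes without one. The 6 and the 12 therefore have no background beside them. Which of the neighbours such a summit belongs to was not tested. By chromosome, summits fell at 3 of 16 snRNA genes on I, 5 of 16 on II, 5 of 13 on III, 3 of 41 on IV, 2 of 40 on V and 1 of 3 on X. The SL1 cluster makes up 12 of the 40 on V.

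Genes for proteins that make or carry snRNAs were read from 6 lists, with a gene counted where a reproducible summit lay from 500 bp before to 200 bp after an annotated 5′ end. The lists had 8 of 42 genes with a summit (19.0%), against 4.74% of 19973 protein-coding genes. The Sm proteins, which form the ring on most snRNAs, had 2 of 7 (snr-1 and snr-4), and the Lsm proteins, whose nuclear ring binds the U6 tail, had 2 of 8 (lsm-6 and lsm-7). Integrator, which cuts snRNA 3′ ends, had 2 of 11 (ints-4 and ints-8). SNAPc and TBP, which recognise snRNA promoters, had 1 of 8 (snpc-3.4), and the SMN complex, which loads the Sm ring, had 1 of 2 (smn-1). The list meant for proteins of the U1, U2 and SL particles had no summit at any of its 6 genes (rnp-2, rnp-3, rnp-7, sna-1, sna-2 and sut-2). The lists were drawn up by symbol, and whether sut-2 belongs to such a particle was not checked. The difference from other protein-coding genes was not tested.

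The strongest of these regions was at ints-4 on chromosome I, with a score of 320.4 (rank 75), 140.5 in replicate 1 and 179.9 in replicate 2, and its summit lay 1 bp upstream of the nearest 5′ end. At smn-1 the score was 231.8, with 97.2 in replicate 1 and 137.8 in replicate 2, and at snr-1 it was 205.1, with 94.1 and 99.6 in replicates 1 and 2. All were present in both replicates. The reproducible score was 194.2 at lsm-6, where replicate 1 had no summit in the region and replicate 2 scored 123.9. It was 171.0 at ints-8, 136.2 at snpc-3.4 and 115.2 at lsm-7. The snr-4 summit is the same one counted for the U4-like gene C52E4.8. It lies 376 bp upstream of the nearest snr-4 5′ end and 19 bp upstream of C52E4.8, so the count for the Sm proteins is not independent of the snRNA genes.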

How the data were processed

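ATHP-1-GFP was measured by ChIP-seq in 2 biological replicates of whole young adults, grouped by the labels. The deposited files are peak lists. Per the deposited readme text, the authors called each replicate list on 1 alignment with a control, the pooled list on both, and derived the reproducible list of 1649 regions from these, thresholded by irreproducible discovery rate. No aligner, caller, threshold or read depth is stated there or in the labels, so counting intervals were not computed. The strength of a region is the authors' signal score; their −log10 q-value was tied at its maximum of 3.44 for 1393 of the deposited reproducible regions and was not used. The summit is the deposited offset from the start of the region. Only the ce11 lists were used.

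Genes came from Ensembl release 115. All 129 members matched RefSeq gene symbols through their WormBase identifiers, and these symbols are used because Ensembl gives only 94 distinct names to them. A summit had to lie in the gene body or the 200 bp upstream; the strongest was taken where there were several. The SL1 and SmY families and 18 SL2 genes came from symbols. The rest came from letters of the RNA or at least 80% identity over 80% of the shorter sequence, ZK1251.14 in SL2 included. The SmY class, the letters and the upstream patterns were chosen after the files were seen. The members and lists were chosen with earlier results of these data known. Words of 36 and 50 bases were counted on both strands of the 6 chromosomes. Named genes are every snRNA gene with a reproducible summit, in each family the 2 without one with the highest pooled score and the gene with no summit in any list where there was exactly 1, the protein-coding genes around the first kind, and genes of the 6 protein lists with a summit. Genes with a summit only past the 3′ end were named after their values were seen. Placement of summits was tested on simulated data. Python 3.11.15, numpy 2.4.6, pandas 2.3.3, Biopython 1.88 and matplotlib 3.10.9 were used. Alternatives were either replicate alone, the 824 strongest of the list, 2 times as many pooled regions, single-copy genes alone, interval overlap, other upstream lengths, a wider body and distinct summits.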

Additional observations from a re-analysis of the deposited data

How the results depend on the processing

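Of 32 alternative values, 22 stayed within 1.5 times the reported count or, for the median position, within the SD of the 2 replicate medians (4.24 bp), and 10 moved. Leaving out 1 replicate gave 9 to 11 genes with a summit in the body, 6 to 10 upstream and 15 to 21 in either region, and median positions of 4 to 10. Without replicate 2 the upstream count was the 6. The 824 strongest regions of the reproducible list, which by construction holds fewer regions, left 3 genes in the body, 6 upstream and 9 in either region, with a median position of -19; all genes then had 1.78% in either region. Overlap of the interval by 1 bp in place of the summit gave 23 genes in the body and 23 upstream, while all genes had 4.30% and 3.22%, since a region of 420 bp is wider than most of these genes. Widening the body by 50 bp gave 19, with 2.86% of all genes. Under the other alternatives the count in either region ran from 14, in the 83 genes with no exact copy, to 26, with 3298 pooled regions, where all genes had 5.95%. The pooled list gives the 19 reported genes the same ranks as the reproducible list, so that setting could only add genes. No paired analysis was possible because there is 1 group. Depth is not known, so genes without a summit cannot be called unbound.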

Other observations

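Outside the snRNA genes, 33 genes had both CCC, 6 bases and TGTC within the 200 bp upstream and a reproducible summit in either region, and they were found after the pattern had been seen in the snRNA genes. Over all genes, snRNA genes included, 438 had the pattern and 46 of those had a summit (10.5%). Of the 346 small nucleolar RNA genes, 27 (7.80%) had the pattern and 10 of those had a summit, the strongest being ZK994.7 with a score of 610.2 (rank 7 of 1649), its summit 9 bp upstream and the pattern at -78. Among noncoding RNA genes, rpr-1, the RNA of ribonuclease P, had a score of 500.5 (rank 16) with the pattern at -64, TATATA within 40 bp and a summit 14 bp inside the gene. Its counterpart mrpr-1, the RNA of ribonuclease MRP, had a score of 288.7 (rank 113) with the pattern at -66, TATATA and a summit 23 bp inside the gene. Of the 158 protein-coding genes with the pattern, 14 had a summit in either region, and at F58G1.7 and cpz-1 that summit lay within 200 bp of an snRNA gene. Only at F56C9.10, W08A12.2, lgg-1 and spr-5 was the summit within 200 bp of the 5′ end. At the rest it lay from 240 bp (egl-17) to 17609 bp (lin-29) inside the gene, away from the pattern.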
